A study of Mus musculus with 192 samples.

Results

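Sparc, Timp2 and Dcn, the genes of 3 secreted proteins of the extracellular matrix, were followed across a grid of small tissue blocks (voxels) cut from the mouse brain. They were taken as every array probe whose platform annotation names Sparc, Timp2 or Dcn, which gave 9 of the 20847 probes of the table: 4 for Sparc, 3 for Timp2 and 2 for Dcn. The 3 genes were chosen on their measured levels across the grid in these same arrays, so their values are a description and carry no test. The study hybridised RNA of each voxel together with RNA of whole mouse brain on a 2-colour array. The voxels came from 68 positions, in rows A to G and columns 1 to 11, of the brains of male C57BL/6 mice at postnatal day 56, and whole brain RNA of the same strain, sex and age was the common reference. There were 3 datasets, labelled as biological replicates, of 59, 68 and 65 arrays, so that 56 positions were measured in 3 datasets and 12 positions in 2. The labels describe the voxel RNA as pooled, without the number of animals, and a voxel holds all the cell types of its place. Voxel cDNA carried the Cy3 dye in datasets 1 and 3, and the dyes were swapped, with Cy5 on the voxel, in dataset 2. The labels do not say which side of the head, or which end of the brain, a row or column stands for.

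SPARC is a collagen-binding glycoprotein that modulates how cells attach to their matrix and respond to growth factors. TIMP2 inhibits matrix metalloproteinases, and together with the membrane-bound enzyme MMP14 it also takes part in the activation of pro-MMP2. Decorin, the product of Dcn, is a small leucine-rich proteoglycan that coats collagen fibrils and binds transforming growth factor beta. In the adult brain, fibrillar matrix is largely a matter of the meninges and the walls of vessels, while Sparc and Timp2 are also transcribed in the tissue itself.

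Sparc and Timp2 had alike maps across the grid, and the bases before their starts are shown so that both can be read side by side. RefSeq's table of promoters, on GRCm38.p6, held 2 of the 3 genes, Sparc and Timp2. Each stretch is the 250 bases before the annotated start, 5′ to 3′ in the direction of the gene, which lies on the minus strand in both cases: chr11:55420081-55420330 for Sparc and chr11:118355412-118355661 for Timp2. Capitals mark matches, searched on both strands. The TATA box was taken as the letters TATAAA. The box named for CCAAT was searched by those letters. For the GC box, to which Sp1 binds, they were GGGCGG. The AP-1 site was searched as TGANTCA, and none of these words overlaps another here.
Sparc: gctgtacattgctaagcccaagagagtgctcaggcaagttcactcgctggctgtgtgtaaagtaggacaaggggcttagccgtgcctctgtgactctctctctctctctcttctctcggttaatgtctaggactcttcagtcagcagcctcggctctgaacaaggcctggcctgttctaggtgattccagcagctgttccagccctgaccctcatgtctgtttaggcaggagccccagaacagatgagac
Timp2: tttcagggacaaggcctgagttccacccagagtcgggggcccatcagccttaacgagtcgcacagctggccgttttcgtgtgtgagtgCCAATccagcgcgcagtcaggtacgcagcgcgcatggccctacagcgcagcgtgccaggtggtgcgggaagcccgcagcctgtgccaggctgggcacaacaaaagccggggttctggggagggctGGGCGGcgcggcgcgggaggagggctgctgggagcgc
The Timp2 stretch held 1 CCAAT box, 162 bases before the start, and 1 GC box, 37 bases before it. The Sparc stretch held none of the 4 motifs, which says only that these letters are not in this window. Over all 32851 promoters of the table, 33.8% of such windows held a CCAAT box, 32.7% a GC box, 12.4% a TATA box and 6.7% an AP-1 site. Guanine and cytosine made up 54.0% of the Sparc bases and 68% of the Timp2 bases.

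The deposited values are log2 ratios in which each probe is centred, so a level of 0 is the probe's middle array and levels of different probes cannot be set against each other. A positive value most likely means more RNA in the voxel than in the probe's middle voxel. The table does not state this direction. It is taken from Ttr, a choroid plexus gene, which stood at 4.10 ± 0.30 (SD, n = 3) at its highest position, E7. Few arrays opposed each other: within datasets, 5 of 6069 pairs of arrays correlated below -0.3 over all features, the lowest at -0.46. Those 5 were all in dataset 2, in which the dyes were swapped, and their cause was not tested. Missing values and values at the table's floor made up between 1.20% and 1.91% of the median array of a dataset, and 41.5% of the worst array, in dataset 3. In row D of dataset 2, columns 1 to 7 ran against the other datasets for these genes, so zone differences, mirror comparisons and correlations between maps that use these arrays are given with and without 6 of them (columns 1 to 3 and 5 to 7), or, for groups of correlations, with their range without them. Values by grid row and correlations between probes of a gene or with single matrix genes are given with them only. Mirror comparisons and correlations among genes and lists without them were added after seeing the data. The 6 arrays were picked because they ran against the other datasets for these same genes. Where datasets agree better or SDs are smaller without them, this follows from that choice and is no support.

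The probes of a gene were not equally informative. For Sparc, the probes BG064802, BG078305 and BG072874 had alike maps: across the positions of a dataset, the Spearman correlation of BG064802 with BG072874 was 0.90, 0.70 and 0.82 in datasets 1 to 3, and with BG078305 it was 0.72, 0.73 and 0.80. The fourth Sparc probe, AW537561, correlated with BG064802 at only -0.09, 0.29 and 0.30. BG064802 had the widest span of the 4, from -1.67 to 3.02 over all arrays, against -1.71 to 2.03 for AW537561.

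For Timp2, AI426775 and BG088451 correlated at 0.86, 0.85 and 0.59 in datasets 1 to 3. The remaining Timp2 probe, M82858, correlated with them at a mean of -0.13 and -0.091. It had a value on 167 arrays, and in dataset 1 on 72.9% of them, below the 80% that a probe needed in every dataset to enter a gene's mean. The Timp2 levels below are therefore the mean of AI426775 and BG088451, and M82858 is given on its own. The Dcn probes, BG086986 and BG088078, correlated at 0.33, 0.57 and 0.43, with 190 and 180 values. These correlations are across positions of the same arrays, which share the reference and the hybridisation.

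The order of positions for Sparc and for Timp2 was similar from dataset to dataset, and that for Dcn was less so. Between datasets 1 and 3, over 56 shared positions, the Spearman correlation of the map was 0.74 for Sparc, 0.77 for Timp2 and 0.34 for Dcn. Between datasets 1 and 2, over 59 positions, it was 0.50, 0.55 and 0.35, and 0.64, 0.75 and 0.39 without the 6 arrays of row D. Between datasets 2 and 3, over 65 positions, it was 0.58, 0.50 and 0.046. Without those arrays the values were 0.66, 0.75 and 0.11. Since the arrays were picked for running against the other datasets, the rise without them follows from the choice. The mean of the 3 correlations between datasets was 0.61 for Sparc, 0.61 for Timp2 and 0.24 for Dcn, against a median of 0.029 over all 15643 features. The 3 genes were chosen on their levels in these arrays, so a place above this median is no support. They are also means of several probes, as only 2879 of the features are. The same holds for the spans and mirror correlations set beside such medians below. By probe, that mean was 0.74 for BG064802 and 0.64 for BG072874, 0.43 for BG078305 and 0.084 for AW537561. It was 0.52 and 0.55 for AI426775 and BG088451, and -0.080 for M82858. For Dcn it was 0.29 for BG088078 and 0.059 for BG086986.

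**Figure D1:**
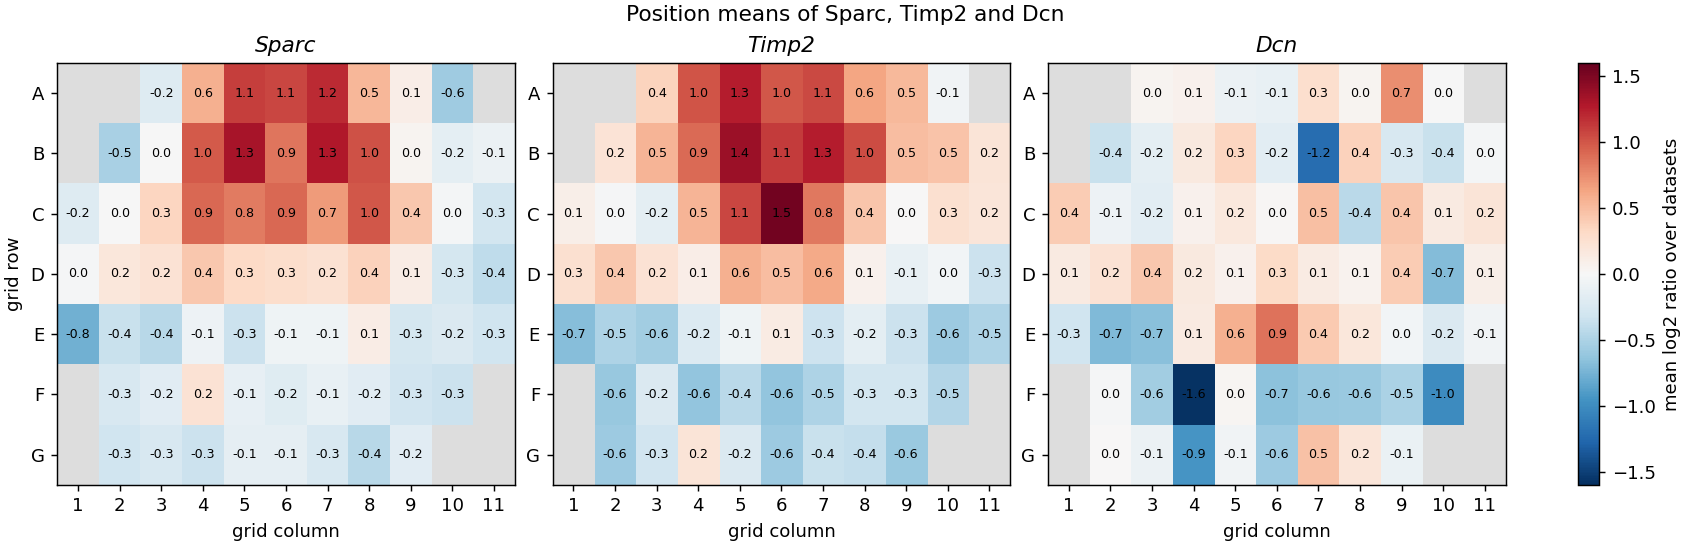
Mean log2 ratio over the datasets (colour and number) at each of the 68 positions for Sparc, Timp2 and Dcn, with grid rows A to G from top to bottom, grid columns 1 to 11 from left to right and no voxel in the grey cells. Sparc and Timp2 were highest in the middle columns of rows A to C and lowest at E1, whereas Dcn was highest at E6 (0.87) and lowest at F4 (-1.58).

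Sparc was highest in a block of the grid made of columns 4 to 8 of rows A to C. Its top position was B5, with 1.33 in dataset 2 and 1.32 in dataset 3 (mean 1.32 ± 0.0062, n = 2). B7 had 1.51, 1.51 and 0.83 in datasets 1 to 3 (mean 1.28 ± 0.39), and A7 had 1.56, 1.11 and 0.90 (1.19 ± 0.34). A5 had 1.24, 1.11 and 0.97, and A6 had 1.22, 1.17 and 0.81. All these arrays were positive, dataset 3 giving the lowest value of each position that was measured 3 times. Next in order came B8 at 1.02 ± 0.082, C8 at 0.99 ± 0.35, B4 at 0.98 ± 0.064 (n = 2) and C4 at 0.92 ± 0.30.

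Sparc was lowest at E1, with -0.63, -0.72 and -0.97 in datasets 1 to 3 (mean -0.77 ± 0.18). A10 followed with -0.91 in dataset 2 and -0.22 in dataset 3, then B2 with -0.58 and -0.45. These are positions at the rim of the grid, and A10 and B2 lie in the same rows as the highest ones. The span between the highest and lowest position mean was 2.10 on the log2 scale, against a median of 1.59 over all features. No 2 neighbours in the order of the 68 positions were further apart than their SDs, and 4 other positions overlapped B5 within mean ± SD.

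The Sparc probe with the widest span, BG064802, was highest at A6, with 2.82, 2.38 and 2.05 in datasets 1 to 3. A5 had 2.72, 2.14 and 2.36, and B5 had 2.36 and 2.40 in datasets 2 and 3. On this probe the top positions were A6, A5, B5 and A7, all in the middle columns of rows A and B. At B5 the mean was 2.38 for BG064802, 1.36 for BG072874, 1.07 for BG078305 and 0.48 for AW537561. Each of these is relative to the probe's own middle array, so they do not rank amounts of RNA. AW537561 was highest at B7 (0.55 ± 0.29).

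Timp2 was highest at C6, with 1.14, 1.43 and 2.05 in datasets 1 to 3 (mean 1.54 ± 0.46). B5 followed with 1.75 in dataset 2 and 0.98 in dataset 3 (1.37 ± 0.55, n = 2), then B7 with 1.22, 1.81 and 0.74 and A5 with 1.26, 1.64 and 0.86. All arrays of these 4 positions were positive, with dataset 2 the highest at B5, B7 and A5 and dataset 3 the highest at C6. The order within this group is not resolved, since 16 other positions overlapped C6 within mean ± SD. Of the probes, AI426775 had 1.12, 1.21 and 2.72 at C6, and BG088451 had 1.15, 1.66 and 1.37 there.

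Timp2 shared its lowest position with Sparc: E1 had -0.54, -0.82 and -0.69 (mean -0.68 ± 0.14). It was nearly as low at 3 positions of row F, with -0.63 ± 0.59 in F4, -0.63 ± 0.27 in F6 and -0.61 ± 0.17 in F2. At B2, where Sparc was low, it had 0.23 and 0.19 in datasets 2 and 3. At C8, where Sparc had 0.76, 1.39 and 0.81, Timp2 had 0.13, 1.06 and 0.13. The span of position means was 2.22.

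Dcn was highest outside the block in which Sparc and Timp2 were. Its top position was E6, with 0.76, 0.81 and 1.05 in datasets 1 to 3 (mean 0.87 ± 0.16). E6 stood out on the probe BG088078, with 1.56, 1.56 and 1.63, and no other position overlapped it there within mean ± SD. The other probe, BG086986, had -0.050, 0.056 and 0.47 at the same place, so E6 rests on 1 probe. Its neighbours in the same row were positive in all datasets: E5 had 1.11, 0.44 and 0.15, and E7 had 0.46, 0.28 and 0.53. F6, below it in the next row, was negative in all of them, with -0.80, -0.45 and -0.71.

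G7 was also positive throughout, with 0.55, 0.39 and 0.47, and so was C1, with 0.41, 0.31 and 0.50. At other positions the Dcn datasets differed widely. A9 had 2.03, -0.36 and 0.56 (mean 0.74 ± 1.21), and B7 had -4.08, -0.12 and 0.56 (-1.21 ± 2.51). At B7 in dataset 1 only BG086986 had a value, so the low mean is 1 spot on 1 array. The lowest position, F4, had -2.60, -1.70 and -0.43 (-1.58 ± 1.09), negative in each dataset. The Dcn span of 2.45 was the widest of the 3 genes, and the median SD of a position was 0.42, against 0.23 for Sparc and 0.32 for Timp2.

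**Figure D2:**
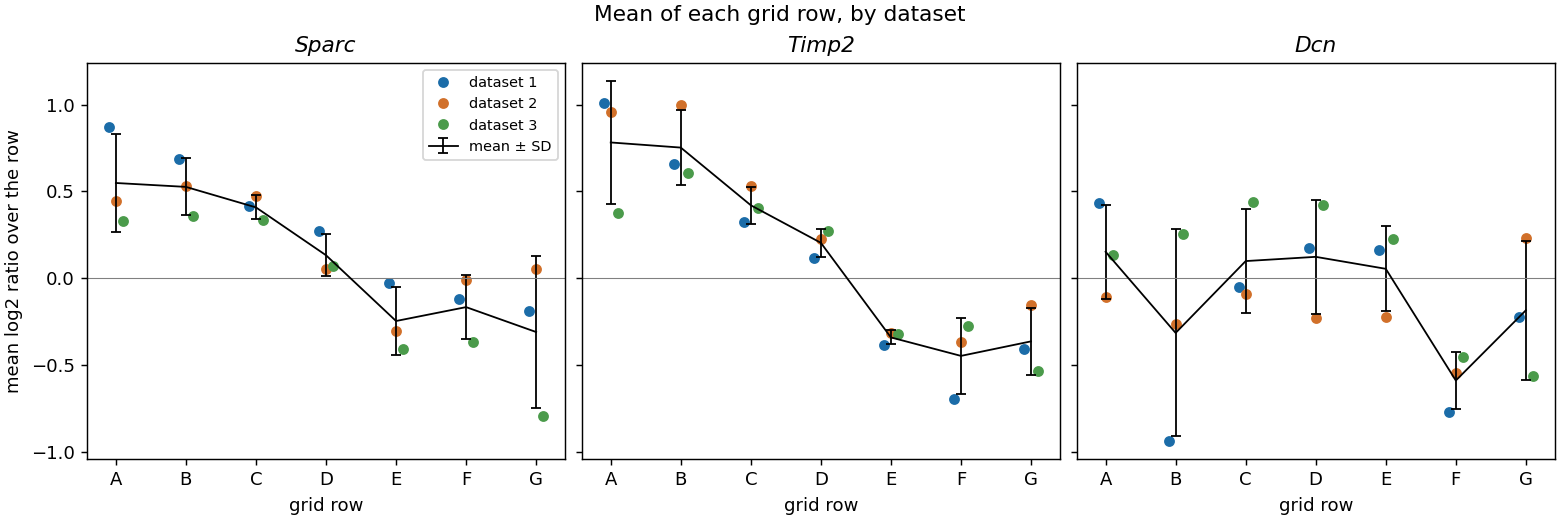
Mean log2 ratio of all positions of a grid row (A to G) for Sparc, Timp2 and Dcn; coloured points are the 3 datasets, and the black line with bars is their mean ± SD (n = 3). Sparc and Timp2 were positive in rows A to D and negative in rows E to G by their means, while the Dcn datasets spread around 0 outside row F (-0.59).

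By grid row, Timp2 went down in steps from row A to row E. It averaged 0.78 ± 0.35 in row A, 0.75 ± 0.21 in row B, 0.42 ± 0.11 in row C, 0.20 ± 0.080 in row D and -0.34 ± 0.040 in row E. Taken in order of level, rows B, C, D and E were each apart from the next by more than their SDs, whereas A and B, and E, G and F, were not. Row F averaged -0.45 ± 0.22 and row G -0.36 ± 0.19. Every dataset was positive in rows A to D and negative in rows E to G.

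Sparc followed the same course with less separation. It averaged 0.55 ± 0.28 in row A, 0.53 ± 0.16 in row B, 0.41 ± 0.069 in row C and 0.13 ± 0.12 in row D. Rows F, E and G averaged -0.17 ± 0.18, -0.25 ± 0.20 and -0.31 ± 0.44. Only C and D were neighbours in that order set apart by more than their SDs. In row G dataset 3 was at -0.79 and dataset 2 at 0.054. Dcn was lowest in row F, with -0.77, -0.55 and -0.45 in datasets 1 to 3, and no neighbouring rows in its order were apart by more than their SDs.

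In rows A to C, the Sparc mean of columns 5 to 7 was above that of the other columns, but high levels were not confined to them. By position means, C4 (0.92) and C8 (0.99) were above C5 (0.83), C6 (0.91) and C7 (0.68). B4 (0.98) and B8 (1.02) were above B6 (0.85) and below B5 (1.32) and B7 (1.28). A4 (0.57) and A8 (0.53) were below A5 (1.11), A6 (1.07) and A7 (1.19). In row A, columns 5 to 7 exceeded the other columns of the row by 0.94, 1.09 and 0.90 in datasets 1 to 3 (0.98 ± 0.10). The excess was 0.84 ± 0.44 in row B and 0.56 ± 0.20 in row C, positive in each dataset. In row B it was 0.33, 1.16 and 1.03 in datasets 1 to 3. Dataset 1 held only B6, B7, B8, B10 and B11 of that row. Row B values of all 3 genes, here and in the row means above, therefore average different positions in dataset 1. In rows E, F and G the Sparc excess was 0.13 ± 0.23, 0.025 ± 0.17 and 0.087 ± 0.075. Among rows other than D, the Timp2 excess was largest in row C, with 0.89, 1.06 and 1.07 (1.01 ± 0.10), against 0.54 ± 0.19 in row A and 0.63 ± 0.38 in row B. It was 0.35 ± 0.046 in row E, and -0.11 ± 0.16 and -0.12 ± 0.22 in rows F and G. For Dcn the excess was seen in row E, with 0.91, 1.01 and 0.48 (0.80 ± 0.28).

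**Figure D3:**
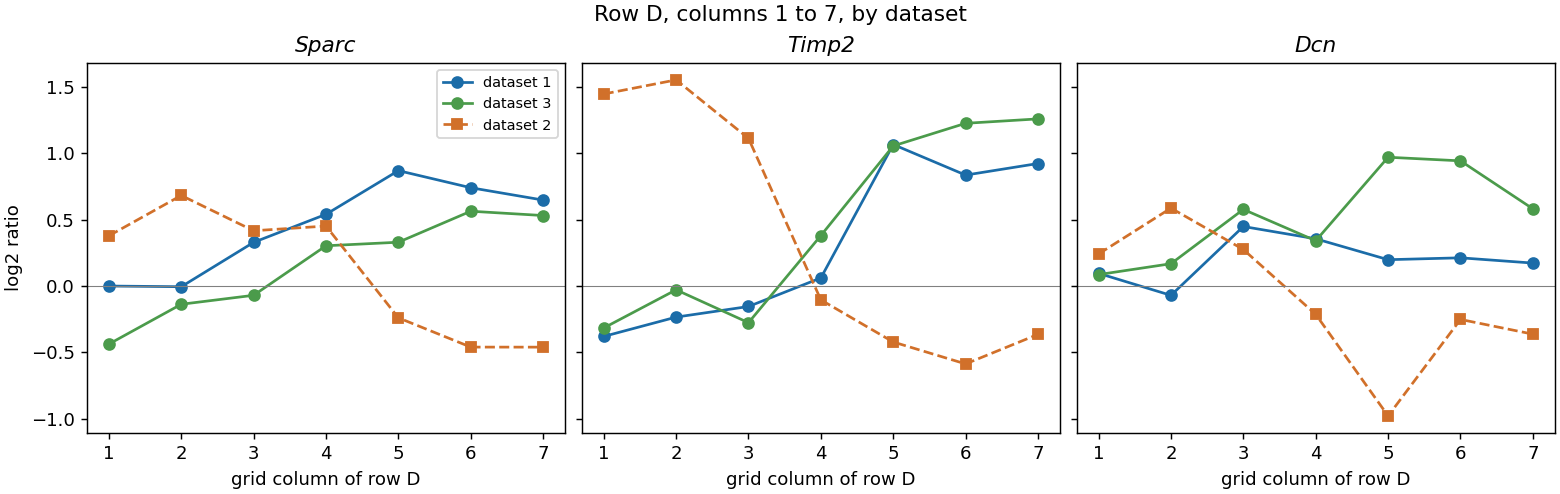
Log2 ratio in columns 1 to 7 of grid row D for Sparc, Timp2 and Dcn; lines join the positions of one dataset, with dataset 2 dashed. Sparc and Timp2 go up from column 1 to columns 5 to 7 in datasets 1 and 3 and down in dataset 2.

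Row D could not be read in the same way. For Timp2, columns 5 to 7 had 1.07, 0.84 and 0.92 in dataset 1 and 1.05, 1.22 and 1.26 in dataset 3, but -0.42, -0.59 and -0.36 in dataset 2. In columns 1 to 3, dataset 2 had 1.45, 1.55 and 1.11, where dataset 1 had -0.38, -0.23 and -0.15. Over columns 1 to 7, the Spearman correlation of dataset 2 with the mean of the other datasets was -0.75 for Timp2, -0.64 for Sparc and -0.71 for Dcn as labelled. With the columns of dataset 2 taken in reverse it was 0.75, 0.89 and 0.57. The labels were kept, and the cause was not tested. The excess of columns 5 to 7 over the rest of row D was 0.20 ± 0.70 for Sparc and 0.48 ± 1.23 for Timp2 over 3 datasets, and 0.61 ± 0.074 and 1.19 ± 0.079 over datasets 1 and 3 (n = 2).

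The maps of Sparc and Timp2 were alike on both sides of column 6. Over 29 pairs of mirrored positions, the Spearman correlation of the position means was 0.80 for Sparc, 0.86 for Timp2 and 0.25 for Dcn, against a median of 0.14 over all features. The median difference between mirrored positions, regardless of sign, was 0.098 for Sparc, 0.17 for Timp2 and 0.27 for Dcn. Columns 1 to 5 exceeded columns 7 to 11 by 0.000017 ± 0.029 for Sparc, by 0.066 ± 0.062 for Timp2 and by -0.11 ± 0.11 for Dcn (n = 3). Without the 6 arrays of row D the mirror correlations were 0.83 for Sparc, 0.89 for Timp2 and 0.34 for Dcn. The side differences were then -0.028 ± 0.070, 0.0065 ± 0.16 and -0.14 ± 0.070. That of Sparc was below its SD in size with and without these arrays, and that of Timp2 only without them. With the probe M82858 included, the Timp2 side difference was -0.014.

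Rows A and B exceeded rows F and G for both Sparc and Timp2 in every dataset. For Timp2 the arrays of rows A and B ran from 0.31 to 1.26 in dataset 1 (median 0.95, 11 arrays), while those of rows F and G ran from -0.94 to -0.14 (median -0.55, 17 arrays), with no overlap. In dataset 2 the same zones ran from -0.082 to 1.81 (median 1.08) and from -1.26 to 0.18 (median -0.20), and 17 of 18 arrays of rows A and B lay above the highest of rows F and G. In dataset 3 they ran from -0.64 to 1.49 (median 0.53) and from -0.98 to 0.80 (median -0.38), and only 4 of 18 did. The zone difference was 1.41, 1.25 and 0.89 in datasets 1 to 3, a mean of 1.18 ± 0.27, or 2.27-fold.

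For Sparc, the arrays of rows A and B had medians of 0.73, 0.65 and 0.40 in datasets 1 to 3, and those of rows F and G had medians of -0.12, -0.030 and -0.42. The zones overlapped in each dataset: 10 of 11, 8 of 18 and 12 of 18 arrays of rows A and B lay above the highest array of rows F and G. The difference was 0.94, 0.47 and 0.90, a mean of 0.77 ± 0.26, or 1.70-fold. For Dcn it was 0.32, -0.013 and 0.70 (0.34 ± 0.36), and no more than 3 arrays of rows A and B lay above the highest of rows F and G in any dataset.

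**Figure D4:**
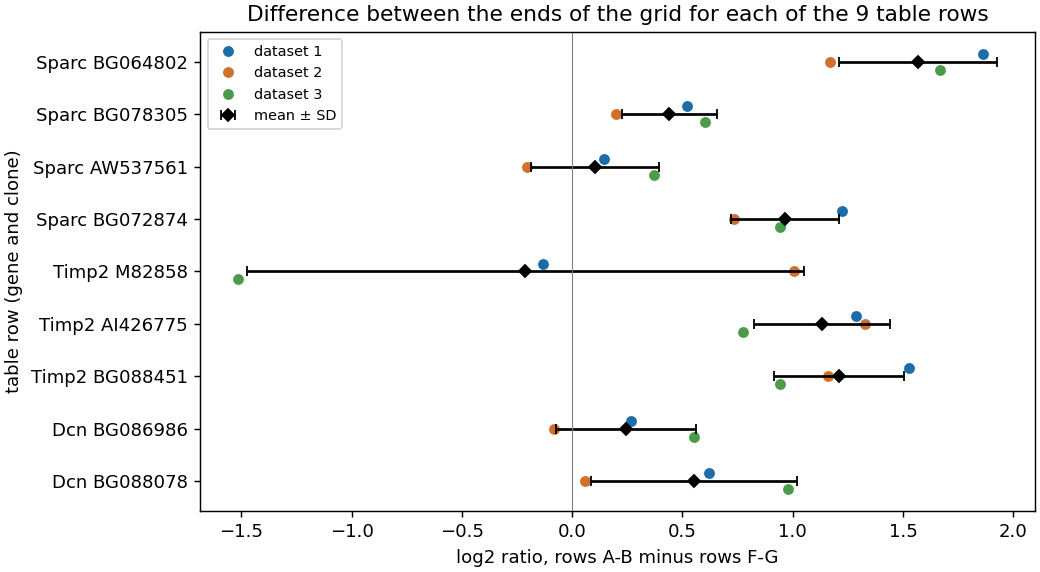
Log2 ratio of rows A-B minus that of rows F-G for each of the 9 probes; coloured points are the 3 datasets, diamonds with bars are their mean ± SD (n = 3). BG064802 had the largest mean difference (1.57), and AW537561, M82858 and BG086986 had datasets on both sides of 0.

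All probes but M82858 had a positive mean difference, and the sizes varied. Among the Sparc probes, BG064802 had a difference of 1.86, 1.17 and 1.67 (1.57 ± 0.36, 2.96-fold), BG072874 of 0.97 ± 0.25, BG078305 of 0.44 ± 0.22 and AW537561 of 0.10 ± 0.29. Both Timp2 probes in the mean gave alike values, 1.13 ± 0.31 for AI426775 and 1.21 ± 0.30 for BG088451. M82858 gave -0.13, 1.01 and -1.51, and with it in the mean the Timp2 difference was 0.76. The Dcn probes gave 0.24 ± 0.32 (BG086986) and 0.55 ± 0.47 (BG088078).

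Columns 5 to 7 exceeded columns 1 to 3 and 9 to 11 by 0.58, 0.43 and 0.67 for Sparc (0.56 ± 0.12, 1.47-fold) and by 0.52, 0.37 and 0.66 for Timp2 (0.51 ± 0.15, 1.43-fold). Without the 6 arrays of row D these were 0.62 ± 0.043 and 0.61 ± 0.081. For Dcn the difference was 0.092 ± 0.021, and 0.14 ± 0.097 without those arrays. With M82858 included, the Timp2 value was 0.30. At the rim of the grid, the 26 positions with fewer than 4 neighbours were below the other 42 by -0.18, -0.20 and -0.43 for Sparc. For Timp2 the rim difference was 0.049, -0.065 and -0.33, and for Dcn it was 0.21, 0.21 and -0.20. Leaving out the row D arrays, the rim differences were -0.29 ± 0.13 for Sparc, -0.13 ± 0.19 for Timp2 and 0.074 ± 0.24 for Dcn. With M82858 included, the Timp2 rim difference changed sign, from a mean of -0.12 ± 0.20 to 0.063.

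Array by array, Sparc and Timp2 moved together. Across the positions of a dataset their Spearman correlation was 0.77, 0.69 and 0.69. Dcn correlated with Sparc at 0.40, 0.16 and 0.32 and with Timp2 at 0.33, 0.18 and 0.27. By probe, BG064802 of Sparc and BG088451 of Timp2 correlated at 0.74, 0.71 and 0.79. Of the Dcn probes, BG088078 correlated with BG064802 at 0.59, 0.43 and 0.45 and BG086986 at 0.23, 0.12 and 0.20. Without the 6 arrays of row D, the dataset 2 values were 0.65 for Sparc with Timp2, 0.086 for Sparc with Dcn and 0.060 for Timp2 with Dcn. For the probes they were then 0.69 for BG088451, 0.39 for BG088078 and 0.070 for BG086986, each with BG064802.

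The other matrix genes were taken from 5 lists of 168 genes, of which 78 were measured. Of these 78, 3 differed among the 68 positions by limma's F test with dataset as a block (adjusted p under 0.05, Benjamini-Hochberg over all features): Sparcl1, Spock3 and Mmp24. That is 3.85%, against 4.9% of all 15643 features, so the share among matrix genes was near the background. The 3 calls depended on the datasets used. Without dataset 1 or without dataset 2 none of the 78 genes passed. Without dataset 3 there were also 3, with Mmp24 and Spock3 kept and Sparcl1 lost. Calls over all features fell as well, from 767 to 316, 215 and 529 without datasets 1, 2 and 3. Of the matrix genes, 4 passed without the 6 arrays of row D, the added one being Spock2. In the SPARC family and matricellular list 2 of 9 measured genes passed, in the list of TIMPs and metalloproteinases 1 of 16, and in the lists of proteoglycans (9 measured), collagens, laminins and basement membrane (28) and receptors and growth factor partners (16) none did. At an unadjusted p under 0.05 the counts were 5, 4, 1, 4 and 1, which is 15 of 78 (19.2%), against 2079 of all 15643 features (13.3%).

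Sparcl1 encodes hevin, the closest relative of SPARC and an astrocyte product. It was highest at C4 (0.93 ± 0.45) and lowest at E3 (-0.85 ± 0.025, n = 2), with limma's F test giving an adjusted p of 0.0027. Its rows A-B minus F-G difference was -0.14 ± 0.21, beside 0.77 ± 0.26 for Sparc, and columns 5 to 7 exceeded the sides by 0.43 ± 0.11. Its correlation with Sparc, averaged over datasets, was 0.44. Spock3, a testican with a SPARC-like domain, was highest at G8 (1.41 ± 3.19), where its datasets spread widely, and lowest at A10 (-1.85 ± 0.71, n = 2; adjusted p = 0.0029, limma). Mmp24, which encodes a membrane-type metalloproteinase expressed in neurons, was highest at G6 (1.67 ± 0.75, n = 2; adjusted p = 2.4e-05, limma).

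**Figure D5:**
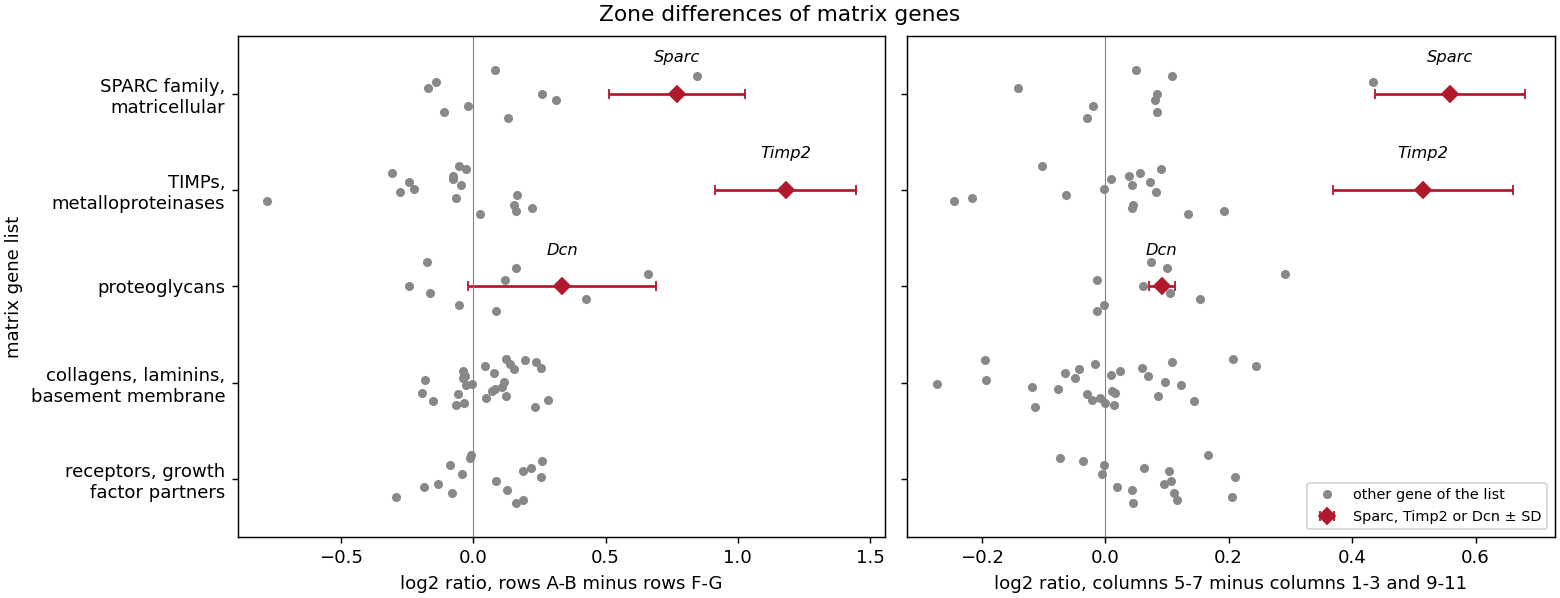
Log2 ratio difference of each measured gene of the 5 matrix lists (grey points) between rows A-B and F-G (left) and between columns 5-7 and columns 1-3 and 9-11 (right); red diamonds with bars are Sparc, Timp2 and Dcn as mean ± SD over 3 datasets. On the left Timp2 (1.18) lies above all the grey points and Sparc (0.77) above all but 1, and on the right both lie above all of them. Sparc, Timp2 and Dcn were chosen on their levels across this grid, and the grey genes were not, so these places are no support.

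No other matrix gene passed limma's test between rows A-B and F-G, where 0.109% of all features did (17 features: 4 higher, 0.0256%, and 13 lower, 0.0831%). Of the 78 genes 39 had a positive difference, with a median of 0.011, and 45.4% of all features did, with a median of -0.021. The largest was 0.85 ± 0.58 for Smoc1, a SPARC-related calcium-binding protein (adjusted p = 0.34, limma). It was the only one above Sparc, and none was above Timp2. Since Sparc and Timp2 were chosen on their levels across this grid, their place among the matrix genes is no support. Between columns 5 to 7 and the sides, 49 of 78 were positive (median 0.043), and none passed, as was the case for all features (0%; 2059 features at an unadjusted p under 0.05). At the rim 17 features (0.109%) were lower and none of them was a matrix gene, and between the 2 sides 0 features passed (523 at an unadjusted p under 0.05). At an unadjusted p under 0.05 the 78 genes gave 3, 7, 5 and 4 in these 4 tests (3.85%, 8.97%, 6.41% and 5.13%), against 9.01%, 13.2%, 13.4% and 3.34% of all features. Without the 6 arrays of row D no matrix gene passed any of them either.

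Among the inhibitors, Timp3, which is bound to the matrix, was highest at C6 like Timp2 (0.74 ± 0.25), and its map correlated with Timp2 at a mean of 0.39. Its rows A-B minus F-G difference was 0.16 ± 0.22. Timp4 was highest at G3 (1.26 ± 1.17), and its difference was 0.026 ± 0.47. Neither passed the F test of limma (adjusted p = 0.25 for Timp3 and 0.17 for Timp4). Of the enzymes that TIMP2 binds, Mmp2 had a difference of 0.15 ± 0.16 and a correlation with Timp2 of -0.025, Mmp16 one of -0.065 ± 0.087 and Mmp17 one of -0.78 ± 1.00. Adam8, a membrane-bound protease, was highest at A10 (0.91 ± 1.05, n = 2).

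Of the relatives of SPARC that did not pass, Spock2 was highest at A3 (1.88 ± 2.79; adjusted p = 0.056, limma), Fstl1, a follistatin-like protein, at C7 (1.20 ± 1.31, n = 2), Thbs4, a thrombospondin, at E4 (2.39 ± 2.02) and Spock1 at B3 (1.82 ± 3.33, n = 2). The SDs exceeded the levels themselves in all but Thbs4.

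Among proteoglycans, Sdc2, a cell-surface heparan sulfate carrier, had the map most like Timp2 and Sparc of all 78 matrix genes, with a mean correlation of 0.60 with Timp2 and 0.51 with Sparc. It was highest at B5 (0.64 ± 0.27, n = 2), the top position of Sparc, and its rows A-B minus F-G difference was 0.43 ± 0.23 (adjusted p = 0.43, limma). Gpc3 was highest at B6 (1.68 ± 2.16) and Sdc1 at E10 (0.93 ± 0.13), Vcan at E1 (0.77 ± 0.68) and Prelp at D5 (0.58 ± 1.11). Of the relatives of decorin, biglycan (Bgn) correlated with Dcn at a mean of -0.18 and lumican (Lum) at 0.23.

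None of the 28 measured genes of the collagen, laminin and basement membrane list correlated with Sparc above 0.17 (Col18a1, mean over datasets). Col6a1, a chain of microfibrillar collagen VI, came nearest to the threshold (adjusted p = 0.050, limma). It was highest at D11 (0.45 ± 0.29) and correlated with Sparc at a mean of -0.36. Col1a2, of fibrillar collagen I, was highest at C1 (0.67 ± 1.01) and correlated with Dcn at 0.29. Eln, elastin, was highest at E1 (0.64 ± 0.42), the lowest position of Sparc and Timp2. Col11a1 was highest at C5 (1.80 ± 3.01) and Fbln2 at E4 (0.58 ± 0.18). The matrix gene whose map was most like that of Dcn was Col9a3, at a mean correlation of 0.42.

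Of the growth factors and receptors, Tgfb2, one of the transforming growth factors that decorin binds, was highest at E7 (0.98 ± 0.59; adjusted p = 0.093, limma), next to the Dcn peak, and correlated with Dcn at a mean of 0.27. Itgb1, the integrin beta chain of many matrix receptors, was highest at A10 (1.53 ± 0.89, n = 2) and correlated with Sparc at 0.34. Egfr was highest at G6 (1.75 ± 3.64, n = 2), Pdgfrb at D7 (0.95 ± 1.47) and Pdgfa at B7 (0.82 ± 1.19). For Egfr, Pdgfrb and Pdgfa the SD over datasets exceeded the level.

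Markers of cell types were set beside the members, since a voxel mixes cells; in such tissue, fewer cells of a type and less RNA per cell cannot be told apart. Few markers of each list were on the array. The mean map of 6 astrocyte markers correlated with Sparc at 0.63, 0.64 and 0.36 in datasets 1 to 3 and with Timp2 at 0.48, 0.57 and 0.38. In dataset 2 without the row D arrays these were 0.60 and 0.52. Sparcl1 is among these 6. The astrocyte mean was highest at C4 (0.65 ± 0.061), and its rows A-B minus F-G difference was 0.061 ± 0.14. Of its genes Aldoc, Slc1a3 and Sparcl1 passed the F test, which 767 of all 15643 features (4.9%) did. The lists are short and were chosen with earlier results known, so the genes passing in them are a description.

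The map of 3 cortical neuron markers ran opposite to Sparc and Timp2. It correlated with Sparc at -0.87, -0.54 and -0.60 and with Timp2 at -0.66, -0.73 and -0.46, and its difference between rows A-B and F-G was -1.40 ± 0.38. Without the row D arrays the dataset 2 values were -0.52 and -0.73. All 3 (Vxn, Mef2c and Fezf2) passed the F test, which 4.9% of all features did, with their highest positions in rows F and G. Vxn also passed between the ends of the grid, at -2.38 ± 0.39 (adjusted p = 0.021, limma). The part of cell composition in the Sparc and Timp2 maps was not tested.

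The other lists followed Sparc less. The mean of 5 myelin markers correlated with it at 0.46, 0.32 and 0.45, and with Timp2 at 0.048, 0.088 and 0.24. Of these, Bcas1, Cryab and Qdpr passed the F test, which 4.9% of all features did. For 5 ependymal markers the Sparc values were 0.27, 0.25 and 0.50, with Ccdc153 and Rarres2 passing. For 6 endothelial markers they were -0.075, 0.47 and 0.031, for 4 mural markers 0.16, -0.084 and 0.11 and for 4 microglial markers 0.16, 0.22 and 0.10, with no gene passing in these lists. For 3 striatal markers (Ppp1r1b, Syndig1l and Rasd2, all passing) they were 0.12, -0.15 and 0.096. For 5 general neuronal markers, of which Syn1, Nefl and Stmn3 passed, they were -0.12, 0.20 and -0.074, and for 3 blood markers, of which Hbb-b1 passed, 0.19, 0.42 and -0.16. Without the row D arrays, the dataset 2 values of these 8 lists with Sparc changed by at most 0.054, and that of myelin with Timp2 was 0.021.

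For Dcn, the mean map of 9 markers of the meninges and fibroblasts correlated with it at 0.27, 0.53 and 0.63, and with Sparc at 0.047, 0.088 and 0.19. The map of 3 choroid plexus markers correlated with Dcn at 0.15, 0.51 and 0.51. Such values were not particular to the meninges and choroid plexus lists. The ependymal list gave 0.25, 0.52 and 0.42 with Dcn. Of the matrix lists, collagens, laminins and basement membrane gave 0.38, 0.22 and 0.67, and receptors and growth factor partners gave 0.33, 0.55 and 0.34. The remaining lists averaged lower. Without the row D arrays, dataset 2 gave 0.49 for the meninges and 0.42 for the choroid plexus with Dcn, and 0.046 for the meninges with Sparc. With Dcn it then gave 0.47 for the ependymal list, 0.24 for the collagen list and 0.53 for the receptor list. The mean map of the meninges list was highest at C5 (0.50 ± 0.85), away from the E6 peak of Dcn. That of the choroid plexus list was highest at E7 (2.21 ± 0.82), beside E6. Both sets had members that peaked at E7: Ttr, the transthyretin gene of the choroid plexus, and Igf2, a growth factor of the meninges and choroid plexus, at 2.16 ± 0.83. Ttr and Igf2 were the genes of the meninges and choroid plexus lists that passed the F test, which 4.9% of all features did. The part of Ttr and Igf2 in the Dcn map was not tested.

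The genes with maps most like each of the 3 were ranked by the mean over datasets of the Spearman correlation across positions. For Sparc they were Vat1l (0.79), Rps6 (0.74), Cd81 (0.73), Glud1 (0.72) and Ndn (0.72). Without the row D arrays these 5 values ran from 0.71 to 0.78. Vat1l, which encodes a protein related to vesicle amine transport protein 1, was also highest at B5 (1.67 ± 0.033, n = 2), and its rows A-B minus F-G difference was 1.84 ± 0.53. Ndn, the imprinted gene of necdin, was highest at A5 (2.05 ± 0.10), with a difference of 1.32 ± 0.13. Rps6 encodes a ribosomal protein, Cd81 a tetraspanin and Glud1 glutamate dehydrogenase, and their differences were smaller, at 0.33 ± 0.17, 0.41 ± 0.11 and 0.31 ± 0.16.

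For Timp2 the list was Gap43 (0.78), Vat1l (0.76), Ndn (0.74), Gsta4 (0.71) and Peg3 (0.69), so that Vat1l and Ndn were on both lists. The range without the row D arrays was 0.69 to 0.78. Gap43, a protein of growing axons and presynaptic terminals, was highest at C6 (1.34 ± 0.47), as Timp2 was, with a rows A-B minus F-G difference of 1.49 ± 0.21. Gsta4, a glutathione transferase, was highest at C8 (0.98 ± 0.46), and Peg3, another imprinted gene, at A6 (0.95 ± 0.22). The correlation of Sparc and Timp2 with each other was 0.715 on this measure. That is just below the lowest of the Sparc list (Ndn, 0.719) and within the range of the Timp2 list.

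For Dcn the closest genes were Gemin2 (0.54), Igf2 (0.54), Serpinf1 (0.53), Tcf7l2 (0.52) and Cd24a (0.52), lower than the closest genes of Sparc or Timp2, and 0.49 to 0.56 without the row D arrays. The Gemin2 map was itself unstable, its highest position, C5, being 1.44 ± 2.22. Tcf7l2, a transcription factor of the Wnt pathway, was highest at C6 (2.71 ± 0.59), where Dcn was at 0.022 ± 0.46. Serpinf1, which encodes pigment epithelium-derived factor, was highest at B7 (1.51 ± 1.41) and Cd24a at G8 (1.65 ± 2.32).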

How the data were processed

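The authors deposited 1 table of log2 ratios of voxel and reference RNA (their array processing is not given in the sources used here), with a floor of -6.64. For 99.9% of its probes the median over arrays was within 0.001 of 0. Floor values (0.483%) were left out as not measured, 1.93% were missing, each array was centred on its median (shifts up to 0.353), and probes needed values on 80% of the arrays of every dataset. Control probes (20) were left out. Of 13211 probes with 1 symbol, 12982 matched a mouse gene of RefSeq, and probes of a gene were averaged. Tests used limma 3.58.1 in R 4.3.3: a moderated F test over positions with the dataset as a block, and tests of 1 zone difference per dataset against 0, two-sided (n = 3), with an adjusted p threshold of 0.05. They were tested on simulated data.

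Dataset numbers come from the titles; a dataset is labelled as 1 biological replicate of all positions with 1 dye orientation, so it entered as the block. The highest correlation between 2 arrays was 0.746, so none was taken as a duplicate. The 3 genes and all gene lists were chosen with earlier results of these data known. Named were the 3 genes, the 5 genes most like each, matrix genes that passed a test with up to 5 more per list by smallest F test p, and the cell type lists with the genes that passed. Others were named after their values were seen (Lum, Bgn, Mmp2, Col9a3 and Col18a1). SDs are over datasets, and the small number of datasets limits the precision.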

Additional observations from a re-analysis of the deposited data

How the results depend on the processing

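Of 187 recomputed values of Sparc, Timp2 and Dcn, 174 stayed within 1 SD of the value given, 12 moved by more, and 1, the Timp2 side difference, moved by more and changed sign. Values near 0 also changed sign while within 1 SD: the Timp2 rim difference (-0.12) was 0.063 with no filter on probes and 0.073 without dataset 1, that of Dcn (0.073) was -0.0012 without dataset 2, and the Sparc side difference (0.000017) was -0.013 with the median of probes, -0.018 without dataset 3 and -0.028 without the row D arrays. With no filter on probes, M82858 enters the Timp2 mean: its rows A-B minus F-G difference became 0.76, its middle minus sides difference 0.30 and its side difference -0.014. Leaving out 1 dataset each gave 0.58 to 1.33 and 0.32 to 0.59 for the first 2 of these, the lower ends without dataset 1, when M82858 enters. Sparc at B5 was 1.36 without array centring, 1.72 after quantile normalization, 1.24 with the median of probes, 1.32 to 1.35 with a dataset left out and 1.25 with each dataset's mean subtracted, a setting added after seeing the data. The Dcn middle minus sides difference was 0.14 without the row D arrays, 0.12 with values limited to within 3 of 0 and 0.015 over positions in all 3 datasets. With only probes measured on every array Dcn had no value, and with each probe on its own there is no gene mean.

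Counts of features called depended on the setting. For rows A-B against F-G (17) there were 1 with floor values kept, 0 after quantile normalization, 5 with no filter, 155 with probes measured on every array, 26 with limited values, 33 over positions in all 3 datasets and 0 to 8 with a dataset left out. For the middle columns (0) there were 61 after quantile normalization, 203 with probes on every array, 47 without the row D arrays, 8 with limited values, 5 over positions in all 3 datasets and 0 to 30 with a dataset left out. For the rim (17) there were 4 with floor values kept, 54 after quantile normalization, 7 with no filter, 127 with probes on every array, 30 with each probe on its own and 0 to 44 with a dataset left out. For the F test (767) there were 1162 after quantile normalization, 2553 with array weights and 215 to 529 with a dataset left out. Matrix genes called (3) became 9 after quantile normalization, 6 with each probe on its own, 5 with limited values, 18 with array weights and 0 to 3 with a dataset left out. With no replicate block the count was 365 for the F test. For the zones, this setting took every array as a replicate, in place of 1 difference per dataset. It gave 1802 for rows A-B against F-G, 755 for the middle columns and 1322 for the rim. Arrays of a dataset are not independent replicates, so these zone counts cannot be set beside the others.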

Other observations

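Besides the mouse probes, 3 probes of the table carry the human symbol TIMP2 in the platform annotation, and they were not counted among the members. Their maps correlated with Timp2 across the positions of datasets 1 to 3 at 0.64, 0.62 and 0.74, at 0.40, 0.45 and 0.75, and at 0.41, 0.55 and 0.49. Their rows A-B minus F-G differences were 0.57 ± 0.36, 0.50 ± 0.25 and 0.15 ± 0.39 (SD, n = 3), below the 1.18 ± 0.27 of the mouse Timp2 probes.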
